A study of Mus musculus with 12 samples.

Results

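The genes described here encode the constitutive subunits of the proteasome, the protease complex that degrades ubiquitin-tagged proteins. They were chosen by name, as all symbols that begin with Psma, Psmb, Psmc or Psmd and a digit, leaving out the immunoproteasome subunits Psmb8, Psmb9 and Psmb10. Of 17016 gene symbols matched to probes of the array, 36 met this rule, with 48 probes, and 17 of them had islet signal enough to be tested, out of 3920 genes tested in all. Psmc3ip met it by its letters alone, since it encodes a recombination factor of meiosis and not a subunit. Psma8, a subunit of the testis, was not analysed here.

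RNA of pancreatic islets cut out by laser microdissection was measured in female mice aged 12 weeks, 6 of strain NOD and 6 of strain NOD.B10, with 1 array per mouse. NOD mice develop autoimmune diabetes. NOD.B10 mice share the NOD background, carry the MHC haplotype of another strain and remain free of diabetes. The labels name no treatment. The islet RNA was amplified and labelled with Cy5, and amplified universal mouse RNA, common to all arrays, was labelled with Cy3 on the same array, without dye swap. The strain comparison asks which transcripts differ in islets of the diabetes-prone strain.

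The proteasome consists of a barrel-shaped core, the 20S particle, and a cap, the 19S particle. The core is a stack of rings: alpha subunits (Psma genes) form the outer rings and the gate, and beta subunits (Psmb genes) form the inner rings, which hold the proteolytic sites. The cap has a base, with a ring of ATPases (Psmc genes) that unfold the substrate, and a lid (most Psmd genes) that removes its ubiquitin. Islet endocrine cells make secretory protein at a high rate and rely on the proteasome to degrade misfolded protein from the endoplasmic reticulum. In cells exposed to interferon gamma, the catalytic beta subunits are exchanged for those of the immunoproteasome, whose peptides are presented on MHC class I.

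Of the 17 tested genes, 4 were called higher in NOD islets (23.5%), beside 18.8% of all genes tested, and 2 lower (11.8%), beside 17.8% of all, so that as a set they stood near the background. The 4, Psma1, Psma2, Psma5 and Psmb3, all belong to the core and were higher by 1.39-fold to 2.16-fold. The 2, Psmc2 and Psmd7, belong to the cap. They were lower only relative to the other genes of the array. Their mean unscaled signal was higher in NOD, as for 3771 of all 3920 genes tested, and the NOD.B10 arrays read Psmc2 at background throughout. The sequences before the transcription starts of the 4 genes called higher are shown first, because these genes carry the higher calls and proteasome promoters are known to share short motifs. Each line gives the 250 bases before the annotated start, 5′ to 3′ along the gene, from RefSeq (GRCm38.p6). They lie at chr7:114276117-114276366 on the minus strand for Psma1, and on the plus strand at chr13:14612992-14613241 for Psma2, chr3:108256676-108256925 for Psma5 and chr11:97703184-97703433 for Psmb3. Capitals mark each match, on either strand, to CCAAT, the box bound by NF-Y, to TGACNNNGC, the core of the element bound by Nfe2l1 and its partners, or to GAAA repeated with any 2 bases between, the core of the interferon-stimulated response element.
Psma1: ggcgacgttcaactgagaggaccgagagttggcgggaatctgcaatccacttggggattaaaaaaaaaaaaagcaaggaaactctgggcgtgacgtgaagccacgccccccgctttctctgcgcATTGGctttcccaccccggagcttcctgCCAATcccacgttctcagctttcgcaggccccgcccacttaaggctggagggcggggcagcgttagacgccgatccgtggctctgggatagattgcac
Psma2: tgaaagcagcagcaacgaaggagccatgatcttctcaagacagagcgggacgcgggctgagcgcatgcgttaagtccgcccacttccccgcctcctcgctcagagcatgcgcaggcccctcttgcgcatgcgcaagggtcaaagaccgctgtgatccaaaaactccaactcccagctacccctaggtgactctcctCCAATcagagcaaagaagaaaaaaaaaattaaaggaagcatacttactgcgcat
Psma5: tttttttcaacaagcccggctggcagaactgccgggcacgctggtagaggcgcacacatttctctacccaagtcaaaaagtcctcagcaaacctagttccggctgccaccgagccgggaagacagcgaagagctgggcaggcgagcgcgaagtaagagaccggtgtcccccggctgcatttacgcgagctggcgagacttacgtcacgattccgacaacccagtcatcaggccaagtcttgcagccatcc
Psmb3: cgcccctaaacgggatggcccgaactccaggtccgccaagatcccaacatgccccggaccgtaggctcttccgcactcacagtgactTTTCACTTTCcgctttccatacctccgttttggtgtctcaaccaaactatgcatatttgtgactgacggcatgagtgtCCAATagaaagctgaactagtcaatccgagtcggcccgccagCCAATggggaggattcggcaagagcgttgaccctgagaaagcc

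Psma1 held CCAAT starting at base -126 on the reverse strand and at -98 on the forward strand, Psma2 at -54, and Psmb3 at -85 and -43. Psmb3 also held the response element core at -163 on the reverse strand. Psma5 held none of these letters in this window. CCAAT was found in 3 of these 4 promoters, in 13 of the 32 promoters listed for 30 of the 36 genes (40.6%) and in 33.8% of all 32851 promoters of the same length. Psmc2, which was called lower, also held it, at -28. Psmd7, the other gene called lower, had no listed promoter and was not searched, nor were Psmd3, Psmb1, Psmb2, Psmb7 and Psmc3. TGACNNNGC was found in 5 of the 32 (Psmb5, Psmb6, Psmc6, Psmd12 and Psmd9, 15.6%), in none of the 4, and in 10.2% of all promoters. The response element core was found in 3 of the 32 (Psmb3, Psmd4 and Psmd9) and in 2.98% of all promoters. No match of these motifs overlapped another in the 4 promoters, and a match is a description of letters, not of binding.

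The NOD arrays were brighter in the islet channel, and this bears on every value below. Cy5 was well above background, as marked by the scanner software, on 14 ± 2.55% of spots in NOD (SD, n = 6, 10.7 to 17.3%) and on 6.21 ± 1.37% in NOD.B10 (3.96 to 7.88%). Leukocyte markers differed too: 13 of 13 tested were higher in NOD. Of these 13, 9 were above background on no NOD.B10 array. The test asked for signal on 4 or more of the 12 arrays, so these 9 could enter it only through NOD. The count of 13 was therefore partly set by that filter. The summed level of all 16 markers, tested or not, ran from 0.61 to 1.92% of net Cy5 on the NOD arrays. On the NOD.B10 arrays it ran from 0.0339 to 0.0786%. Ptprc, the leukocyte common antigen, was at least 10.4-fold higher (limma, adjusted p = 9.68e-06), with no NOD.B10 array above background, while Cd3e and Cd79a were above background on no array of either strain. Endocrine markers made up 7.86 to 20% of net Cy5 in NOD and 13.6 to 26.2% in NOD.B10, with 6 of 14 tested lower and none higher. Ins2, an insulin gene, fell by 3.34 on the log2 scale (SE 0.56, limma adjusted p = 0.000678). Relative to all genes it was at -1.71 with the net ratio, -0.75 with Cy5 alone and -0.49 with median centring. With median centring no gene of the array was called lower, and the test was of values not set relative to all genes (limma adjusted p = 0.867). The mean net Cy5 of Ins2 was 12510 scanner units in NOD and 14230 in NOD.B10. Likewise Ins1 fell by 1.75 (limma adjusted p = 0.0402), a call lost on leaving out any of 10 of the 12 arrays. With median centring it was at -0.27 relative to all genes. The islet markers Pdx1, Mafa, Scg2 and Slc30a8 were above background on no array. Acinar markers ranged from 0.0686 to 1.09% and from 0.106 to 3%, with 4 of 7 tested lower. Among them was Cpb1, a carboxypeptidase (log2 -3.46, limma adjusted p = 0.0294, not called on leaving out any of 4 arrays). With median centring it was at -1.13 relative to all genes. Of mesenchymal markers 2 of 8 were higher and 1 lower, of 3 endothelial markers none was called, and the ductal marker tested, Spp1, was not called either. In such bulk samples fewer cells of a type and less RNA per cell cannot be told apart.

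Islet signal was measurable for less than the full set of subunits. The test took genes with a probe whose Cy5 signal stood well above background on 4 or more of the 12 arrays. The core genes Psma1, Psma2, Psma5, Psma7, Psmb3 and Psmb4 and the lid gene Psmd12 passed on all 12 arrays. Psmb6 and all 4 tested ATPase genes, Psmc2, Psmc4, Psmc5 and Psmc6, were above background on 4 to 6 NOD arrays and on no NOD.B10 array, so that their NOD.B10 values are bounds set by background. Psmd2 and Psmd7 were above background on 6 NOD and 4 NOD.B10 arrays, Psmd11 on 6 and 5, and Psmd3 and Psmd14 on 6 and 1. Subcomplex and detection therefore go together in these data and cannot be told apart: 6 of the 7 tested core genes, but 1 of the 10 tested cap genes, were measured on every array. Mean net Cy5 of all 17 was under the 50 units that the background correction adds to each signal in NOD.B10, which draws their ratios towards the middle.

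The other 19 genes were not tested. No probe of 17 of them was above background in the islet channel on any array, though the reference channel read 13 of these 17 on all 12 arrays. They were the alpha genes Psma3, Psma4 and Psma6, the noncatalytic beta gene Psmb1, the catalytic beta genes Psmb5 and Psmb7, the thymic beta gene Psmb11, the ATPase genes Psmc1 and Psmc3, the ubiquitin receptor gene Psmd4, the lid genes Psmd6, Psmd8 and Psmd13, the chaperone genes of base assembly Psmd5, Psmd9 and Psmd10, and Psmc3ip. Psmb2, a beta subunit without a proteolytic site, was above background on 1 NOD.B10 array and Psmd1, a scaffold of the base, on 1 NOD array. A further 8 probes of 7 tested genes (Psmb3, Psmc4, Psmc5, Psmd2, Psmd7, Psmd12 and Psmd14) were above background in the islet channel on no array, so each gene rests on 1 probe. The reference channel nevertheless read the further probes of Psmb3 and Psmc4, and a further probe of Psmd12, on all 12 arrays. For these genes the probes thus disagreed on islet signal.

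**Figure D1:**
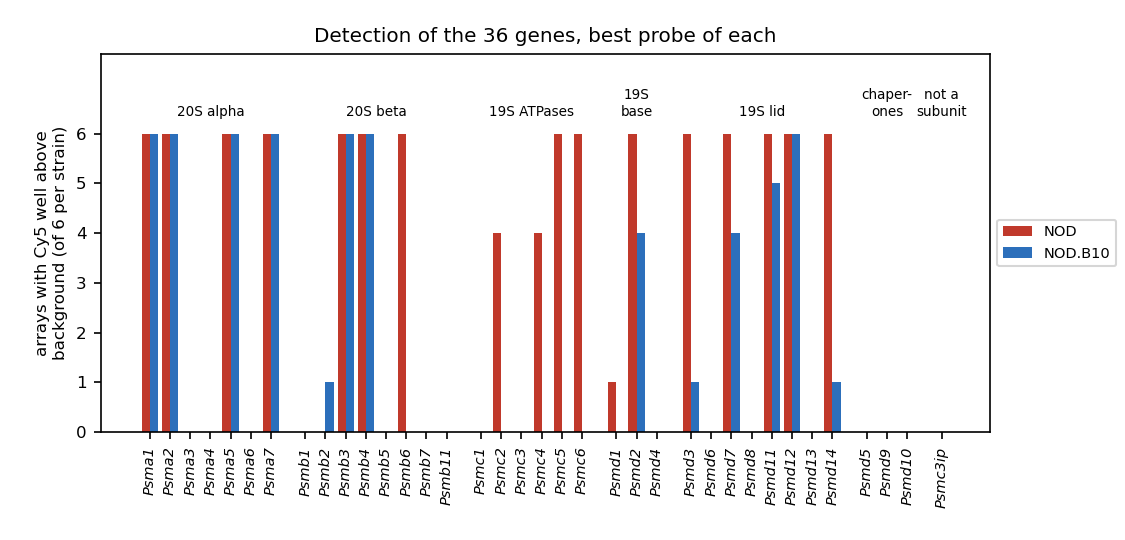
Number of arrays, of 6 per strain, on which the islet channel was well above background for the best probe of each of the 36 genes, NOD in red and NOD.B10 in blue, ordered by subcomplex. The 6 core genes measured on every array and Psmd12 reach 6 in both strains. The ATPase genes Psmc5 and Psmc6 reach 6 and Psmc2 and Psmc4 reach 4, in NOD only. Genes without bars were seen on no array.

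For the tested genes, the log2 ratio of islet over reference signal was compared between strains with limma (differences are NOD minus NOD.B10, given with the SE of the fit, and p-values are adjusted over all 3920 genes). Of the 17 genes, 6 were called in either direction, beside 36.6% of all genes tested. The median difference of the 17 was 0.06 and that of all genes -0.0033, with 10 of the 17 above 0. The NOD and NOD.B10 arrays did not overlap for 3 genes with NOD above (17.6%, against 9.62% of all genes) and for 2 with NOD below (11.8%, against 7.22%). The median was 0.47 for the 7 core genes and -0.097 for the 10 cap genes, a difference that was not tested and that runs alongside detection. Psmb6, the core gene with no NOD.B10 array above background, was at -0.15, among the cap genes, and Psmd12, the cap gene measured on all 12 arrays, was at 0.14.

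**Figure D2:**
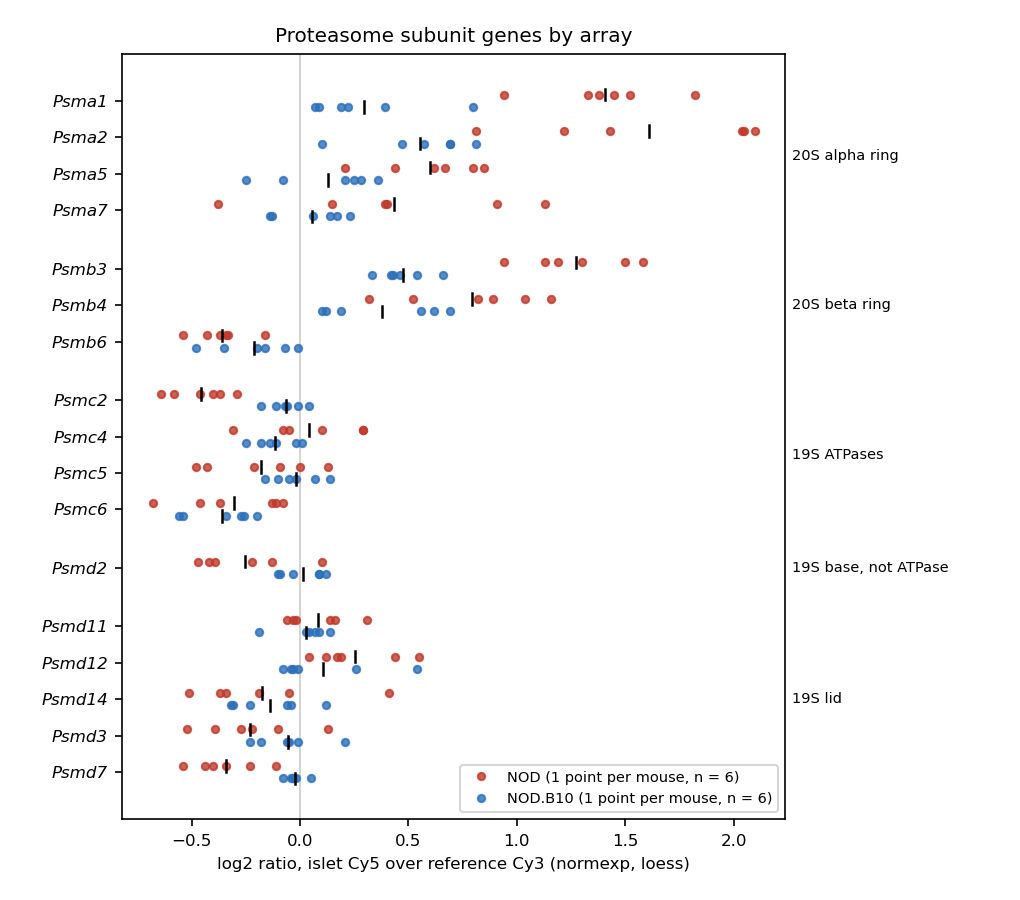
Log2 ratio of islet Cy5 over reference Cy3 for each of the 12 mice (points, NOD red, NOD.B10 blue, n = 6 each) and the strain mean (black tick) for the 17 tested genes, by subcomplex. The NOD points of Psma1 and Psmb3 lie to the right of all NOD.B10 points, those of Psmc2 and Psmd7 to the left, and the others overlap or touch.

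Among the alpha subunits, Psma1 showed the largest difference. Its log2 ratio (probe A_51_P469578) had a lowest value of 0.94, a median of 1.42 and a highest value of 1.82 in NOD, and 0.07, 0.21 and 0.80 in NOD.B10. Every NOD array was above every NOD.B10 array, NOD replicate 5 and NOD.B10 replicate 5 being the nearest. The means were 1.41 ± 0.29 and 0.30 ± 0.27 (SD, n = 6 each), a difference of 1.11 ± 0.16, or 2.16-fold (limma adjusted p = 0.000267).

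Psma2, another alpha subunit, ran from 0.81 through a median of 1.74 to 2.10 in NOD and from 0.10 through 0.63 to 0.81 in NOD.B10 (probe A_51_P415945). The strains touched: the lowest NOD value and the highest NOD.B10 value, both of replicate 5, differed by 0.001. The difference was 1.05 ± 0.22, or 2.08-fold (limma adjusted p = 0.00275). NOD 1, 2 and 4 were the high arrays, at 2.04 to 2.10.

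Psma5, also of the alpha ring, had a lowest value of 0.21, a median of 0.65 and a highest of 0.85 in NOD, and -0.25, 0.23 and 0.36 in NOD.B10. The ranges overlapped through NOD 3, the lowest of its strain, and 5 of the 6 NOD arrays were above all NOD.B10 arrays. The difference was 0.47 ± 0.14, or 1.39-fold (limma adjusted p = 0.0174).

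Psma7 was the tested alpha gene that was not called. It ran from -0.38 to 1.13 in NOD (median 0.39) and from -0.14 to 0.23 in NOD.B10 (median 0.10), a difference of 0.38 ± 0.21 with a 95% interval of -0.079 to 0.83 (limma adjusted p = 0.182). NOD 4 alone was below the NOD.B10 range. Without that array the difference was 0.54 and passed the threshold (limma adjusted p = 0.0296), but it was 0.24 without NOD 2, 0.084 without slide 1, 0.081 with slide as a fixed term and -0.093 within slide 2. The arrays of slide 1, NOD 1 and 2, were the highest.

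Among the beta subunits, Psmb3, which carries no proteolytic site, was the one called. Its log2 ratio had a lowest value of 0.94, a median of 1.24 and a highest of 1.58 in NOD, and 0.33, 0.45 and 0.66 in NOD.B10. No array overlapped, and the gap between the strains was 0.28. The difference was 0.80 ± 0.12, or 1.74-fold (limma adjusted p = 0.000326). The other Psmb3 probe did not show it, with islet signal at background on every array. Its mean net Cy5 was 4 scanner units in NOD and 3.83 in NOD.B10, and its difference -0.139. Psmb4, also noncatalytic, ran from 0.32 to 1.16 in NOD and from 0.10 to 0.69 in NOD.B10, a difference of 0.41 ± 0.16 (95% interval 0.060 to 0.77, limma adjusted p = 0.0635). It passed the threshold without NOD 5 (0.51, adjusted p = 0.0186) or without NOD.B10 1 (0.48, adjusted p = 0.0486). It was 0.36 with slide fixed (adjusted p = 0.239), 0.18 within slide 2 and -0.26 relative to all genes with the scanner's ratio. Psmb6, which carries the caspase-like site and is replaced by Psmb9 in the immunoproteasome, was the only catalytic subunit tested. Its difference was -0.15 ± 0.10 (95% interval -0.37 to 0.076, limma adjusted p = 0.29), with its NOD.B10 arrays all at background. It was called higher with the scanner's ratio (0.99 relative to all genes) and with median centring (0.027). Those tests were of values not set relative to all genes (limma adjusted p = 0.0128 and 0.0132).

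Unscaled islet signal involves neither the reference channel nor loess, but carries the brightness of the array. Net Cy5 of Psma1 was 114 to 480 scanner units on the NOD arrays and 16 to 63.5 on the NOD.B10 arrays, that of Psma2 95 to 544.5 and 15 to 59.5, and that of Psmb3 148.5 to 415.5 and 24 to 42. No array of one strain reached the other for these 3 genes, but the same held for 11 of the 17 members, Psmd7 included, and for 40.5% of all genes tested. The ratio of strains is therefore given beside that of all genes: over 835 genes bright on every array the median was 3.2-fold. The 7 members bright on every array were all above it, at 8.28-fold for Psma1, 6.97-fold for Psma2, 6.05-fold for Psmb3, 5.74-fold for Psma5, 5.26-fold for Psmb4, 5.12-fold for Psma7 and 4.92-fold for Psmd12. With the ratio of net signals in place of normexp and loess, over 837 genes bright on every array, Psma1 and Psma2 were called (limma adjusted p = 0.0015 and 0.0313). Psma5 and Psmb3 were not (0.0802 and 0.0554). These 2 of 7 stand beside 16.2% of all genes called higher under that measure.

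As a share of all net Cy5 signal, the 7 alpha genes on the array, whether tested or not, summed to 0.123 to 0.22% in NOD and 0.0515 to 0.0885% in NOD.B10, with no overlap of arrays. The 8 beta genes summed to 0.0859 to 0.119% and 0.0328 to 0.0834%, again without overlap. The 6 ATPase genes overlapped, at 0.0135 to 0.0251% and 0.00682 to 0.0163%, as did the 8 lid genes, at 0.05 to 0.0647% and 0.0253 to 0.0554%, and the 3 other base genes, at 0.00601 to 0.0109% and 0.00527 to 0.00862%. On this scale no subcomplex had a lower median in NOD, the chaperones of base assembly apart, whose signals were all at background. The higher share was not particular to the subunits, since each list of genes around the proteasome described below had a higher median in NOD. Ubiquitin genes had medians of 0.601% in NOD and 0.22% in NOD.B10, and other cap subunits and assembly factors 0.107% and 0.0525%. Endocrine markers took a smaller part of the signal in NOD (median 11.6% against 22.9%), and acinar and endothelial markers did too.

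The leukocyte marker level moved with strain in the same way as the core genes called higher, and its part in their difference was not tested. Within NOD, the array with the lowest leukocyte share, NOD 5 (0.61%), had the lowest ratios of Psma1 and Psma2 (0.94 and 0.81), but a ratio of Psmb3 (1.5) that only NOD 2 exceeded. NOD 2, with the highest leukocyte share (1.92%), was highest for Psma2 and Psmb3, but not for Psma1 (1.38, below NOD 1, 4 and 6) or Psma5 (0.67, below NOD 4 and 6).

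The arrays lay on 4 slides, and on slides 2 and 3 both strains were present with 2 mice. Slide 1 held only NOD 1 and 2, and slide 4 only NOD.B10 2 and 3. The arrays of slide 4 were scanned on an earlier day than all others, so slide and scan day are partly confounded with strain. Within slide 2 the difference was 1.19 for Psma1, 0.94 for Psma2, 0.41 for Psma5 and 0.56 for Psmb3, and within slide 3 it was 0.80, 0.67, 0.68 and 0.85, so all 8 values were above 0. None of them passed the threshold with 2 mice per strain. With slide as a fixed term Psma1, Psma2 and Psmb3 remained called (limma adjusted p = 0.0085, 0.0308 and 0.00922) and Psma5 did not (0.063). The scanner software's own processed ratio gave, relative to all genes, 0.46 for Psma1, 0.16 for Psma2, -0.060 for Psma5 and -0.089 for Psmb3. The direction of the last pair thus depends on the normalisation. Tests of this ratio were of values before the all-gene median of 0.476 was taken off (limma adjusted p = 0.0109 for Psma1 and 0.0842 for Psma2). They are not tests of the values relative to all genes. With Cy5 alone the values relative to all genes were 0.57, 0.44, 0.21 and 0.28 in the same order, smaller than reported. All 4 were called, again by tests of values not set relative to all genes. When the share of bright spots, which does not overlap between strains, entered as a covariate, no member was called.

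**Figure D3:**
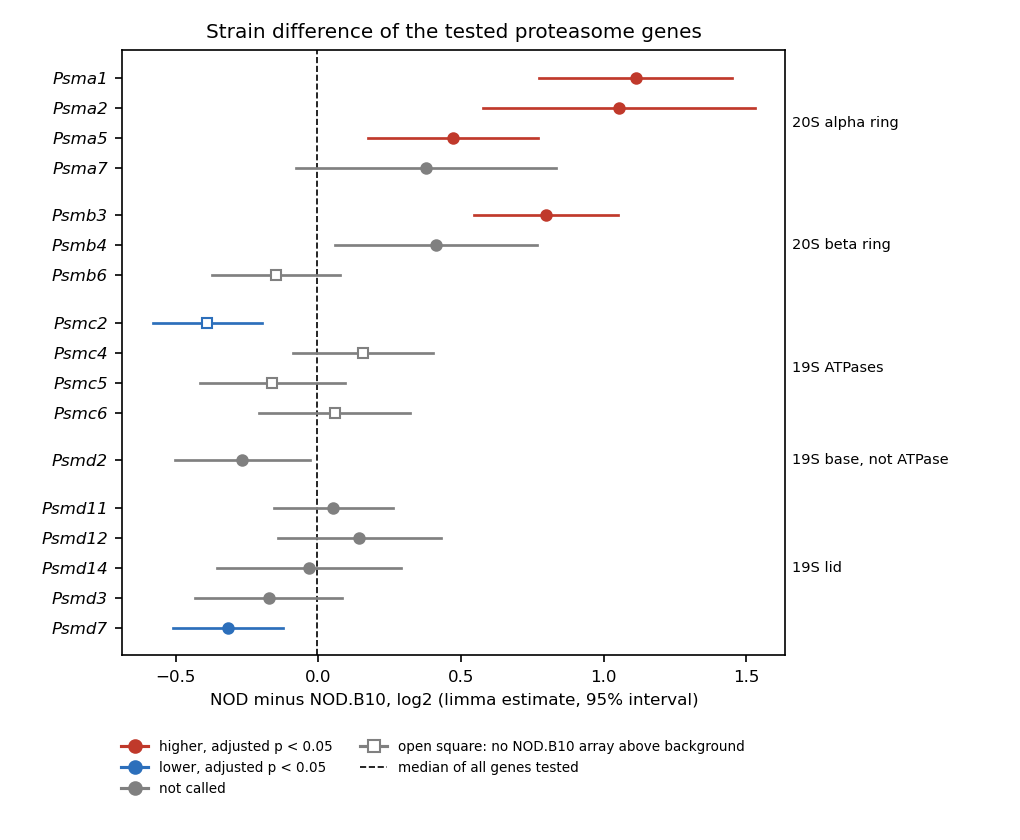
Strain difference (NOD minus NOD.B10, log2, limma estimate with 95% interval, n = 6 per strain) of the 17 tested genes. Red marks genes called higher, blue genes called lower, grey genes not called, and open squares genes above background on no NOD.B10 array. Core genes reach 1.11, and all cap genes lie between -0.39 and 0.16.

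In the cap, the ATPase gene Psmc2 passed the threshold with a lower ratio in NOD, but its NOD.B10 values are background, and the call does not show a lower transcript level. Its log2 ratio had a lowest value of -0.64, a median of -0.43 and a highest of -0.29 in NOD, and -0.18, -0.07 and 0.04 in NOD.B10. The arrays did not overlap, with a gap of 0.11. The difference was -0.39 ± 0.09 (limma adjusted p = 0.0044), for which no fold is given because no NOD.B10 array was above background. Its unscaled signal was higher in NOD, as for most genes tested, with net Cy5 of 8 to 20 scanner units there and 4 to 8 in NOD.B10. Psmc4 (0.16 ± 0.11, adjusted p = 0.305), Psmc5 (-0.16 ± 0.12, adjusted p = 0.307) and Psmc6 (0.06 ± 0.12, adjusted p = 0.744), the other ATPase genes tested with limma, were not called, and 2 of the 4 were above 0. Psmc6 was called higher under other scalings, at 0.81 with the scanner's ratio and 0.38 with Cy5 alone, relative to all genes. The tests were of values not set relative to all genes (limma adjusted p = 0.00637 and 0.000223). Its mean net Cy5 was 51.5 scanner units in NOD and 4.42 in NOD.B10, where all arrays were at background.

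Psmd2, a scaffold of the base to which ubiquitin shuttles dock, was the 1 other base gene tested. It ran from -0.47 through a median of -0.30 to 0.10 in NOD and from -0.10 through 0.03 to 0.12 in NOD.B10. NOD 3 lay within the NOD.B10 range, NOD 1 just below it, and the other 4 further below. The difference of -0.27 ± 0.11 did not pass (95% interval -0.50 to -0.030, limma adjusted p = 0.0731).

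In the lid, Psmd7, the partner of the deubiquitinase, was called lower. Its log2 ratio had a lowest value of -0.54, a median of -0.37 and a highest of -0.11 in NOD, and -0.08, -0.03 and 0.05 in NOD.B10. The strains did not overlap, with NOD 5 within 0.03 of the NOD.B10 range. The difference was -0.32 ± 0.09, or 1.24-fold lower (limma adjusted p = 0.015), while net Cy5 was 17 to 55 scanner units in NOD and 7.5 to 14.5 in NOD.B10. Psmd14, the deubiquitinase that strips ubiquitin from the substrate, differed by -0.032 ± 0.15 (95% interval -0.35 to 0.29, adjusted p = 0.89). Psmd3 (-0.17 ± 0.12), Psmd11 (0.05 ± 0.10) and Psmd12 (0.14 ± 0.13), structural subunits of the lid, were not called either, with limma adjusted p of 0.279, 0.704 and 0.42. Psmd12, measured on all 12 arrays, ran from 0.04 to 0.55 in NOD and from -0.08 to 0.54 in NOD.B10, ranges that overlapped almost throughout.

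Mean unscaled net Cy5 was higher in NOD for all 17 members, but also for 3771 of all 3920 genes tested. For Psmd7 it was 3.08-fold higher, beside a median of 3.2-fold over the 835 genes bright on every array. The calls of Psmc2 and Psmd7 in the cap are thus relative to the brightness of the array. Neither was called with slide as a fixed term (Psmc2 -0.30, limma adjusted p = 0.0809; Psmd7 -0.28, 0.12), with Cy5 alone (-0.057 and -0.11 relative to all genes) or within slide 2 (-0.38 and -0.45) or slide 3 (-0.22 and -0.12). The tests with Cy5 alone were of values not set relative to all genes. Psmc2 stood above the median of all genes with the scanner's ratio (0.16), and Psmd7 with median centring (0.018). Psmd7 also lost its call without slide 1 (-0.28, adjusted p = 0.0649) or slide 4 (-0.32, adjusted p = 0.0587).

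**Figure D4:**
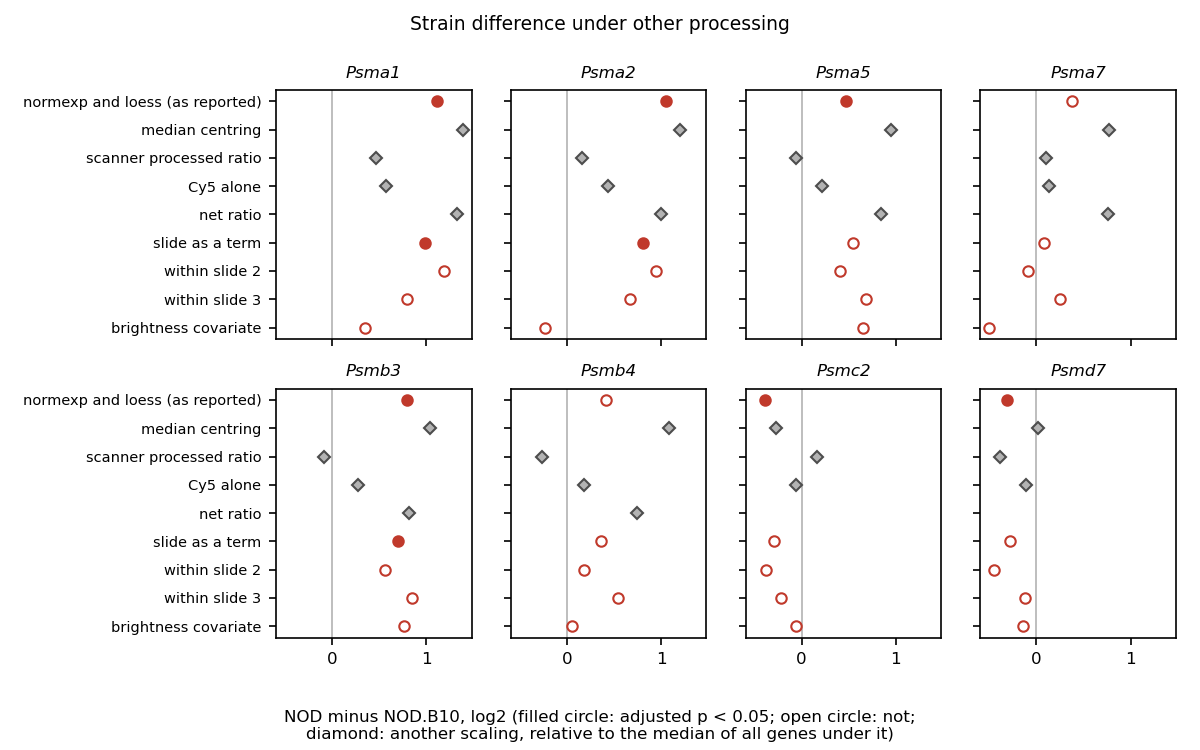
Strain difference (log2, NOD minus NOD.B10) of 8 genes as reported and under other processing, by row. Filled circles passed limma's adjusted threshold of 0.05, open circles did not, and diamonds are values under another scaling relative to all genes. Psma1 lies right of 0 in every row, Psmb3 and Psma5 in all but the scanner's ratio, while Psmc2 and Psmd7 were called only as reported among the rows with circles.

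Genes around the proteasome were described from lists outside the rule. Among activators that open the core without ubiquitin, Psme2 rose 2.32-fold (1.21 ± 0.15, limma adjusted p = 0.000111) and Psme1 1.86-fold (0.90 ± 0.17, adjusted p = 0.00132), the pair that forms the interferon-inducible activator PA28. Psme2 was at 0.77 with the mean of its passing probes in place of the brightest one, and at 0.57 relative to all genes with Cy5 alone, and Psme1 at 0.49 with Cy5 alone, all still called. The tests with Cy5 alone were of values not set relative to all genes. Psme4, another activator, was at -0.085 ± 0.18 (adjusted p = 0.738), so 2 of 3 tested genes of this list were higher. Both immunoproteasome genes tested passed the threshold, with no NOD.B10 array above background. Psmb10 was at least 1.47-fold higher (limma log2 0.62 ± 0.10, adjusted p = 0.000523), and Psmb9 differed by 0.49 ± 0.11 (adjusted p = 0.00388), with no fold given as its bound is under 1. With median centring Psmb9 was at -0.085 relative to all genes, so that its direction depends on the scaling. It was not called there, by a test of the value not set relative to all genes (limma adjusted p = 0.0781). Psmb8 was above background on no array.

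Among ubiquitin genes, the ribosomal fusion gene Rps27a was higher (1.35 ± 0.27, limma adjusted p = 0.00212), and the polyubiquitin gene Ubb was at -0.069 ± 0.16 (adjusted p = 0.769). With the scanner's ratio Rps27a was not called. Of 3 tested genes of the pathway that drives transcription of subunit genes when the proteasome is impaired, Nfe2l1, its transcription factor, was called lower. The difference was -0.36 ± 0.10, or 1.28-fold (limma adjusted p = 0.0148), with 6 NOD and 2 NOD.B10 arrays above background. Its mean net Cy5 was higher in NOD (27.33 scanner units, against 10.08 in NOD.B10). Nfe2l1 was thus lower only relative to the other genes of the array. Its call was lost with the scanner's ratio, Cy5 alone and slide as a fixed term, and with median centring, where no gene was called lower. The related factor Nfe2l2 (-0.12 ± 0.14) and Ngly1, the glycanase that processes Nfe2l1 (-0.15 ± 0.11), were not called (limma adjusted p = 0.539 and 0.307).

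Among proteasome-bound deubiquitinases, ligase and shuttles, 1 of 6 tested passed the threshold, the shuttle Rad23b (-0.27 ± 0.09, limma adjusted p = 0.0288). Its NOD.B10 arrays were all at background, its mean net Cy5 was higher in NOD (13.4 against 5.17 scanner units), and the call was lost under 16 of 26 alternatives, so it does not show a lower level. The segregase Vcp (-0.19 ± 0.14) and the shuttle Ubqln2 (-0.14 ± 0.12) were not called. Of 2 tested genes of ubiquitin-like activation, Uba3 was at -0.22 ± 0.16 and Uba2 at -0.032 ± 0.11, both not called. Among other cap subunits and assembly factors none of 3 was called: the small lid subunit Sem1 was at 0.51 ± 0.25 (limma adjusted p = 0.133), the core assembly chaperone Pomp at 0.18 ± 0.14 (0.337), and the ubiquitin receptor Adrm1 at -0.21 ± 0.10 (0.113). Psmf1, the inhibitor, and Uba1, the main ubiquitin-activating enzyme, were above background on no array.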

How the data were processed

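The deposited scanner files give, for each spot, unnormalised median intensity of signal and of local background in both channels, with quality marks (outlier, well above background), all made by Feature Extraction 10.5.1.1 according to the headers. They also give processed intensity and its log10 ratio, background-subtracted and dye-normalised per the file headers. The deposited series table repeats that ratio as log2, uncentred (medians -0.286 to -0.0639), and was not used further. For matched probes with a single spot, 100% of its values were equal to that ratio within 0.01.

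Normexp (offset 50) and within-array loess were applied in limma 3.58.1 (R 4.3.3), with control and outlier spots at weight 0. No spot was saturated. The offset exceeds the mean net Cy5 of all 17 members in NOD.B10, and of most cap genes in NOD, and compresses their ratios. Spots of a probe were averaged, and probe accessions gave RefSeq symbols (GRCm38.p6) to 24375 of 41174 probes. The brightest passing probe stood for each symbol. lmFit and eBayes compared the strains, with Benjamini-Hochberg adjustment over 3920 genes and a threshold of 0.05. A fold is 2 to the power of the difference; for a gene higher with no NOD.B10 array above background it is a lower bound, with those arrays raised, where lower, to the 10th percentile of their own above-background Cy5 signals. Net Cy5 is signal minus background. On simulated data of 3920 genes, 62% of differences of 0.5 (log2) and 88% of those of 1 were recovered. Precision is limited by array number and dim signals.

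Array values are given for called members and the member of each subcomplex with the smallest p, list genes are named by smallest p (up to 3 per list), and Ins1, Ins2, Ptprc and Cpb1 whatever their values. Others were named after their values were seen, and 1 list gene is not reported here. Members, lists and tests were chosen with earlier results of these data known. Alternatives were other scalings, filters and probe rules, array weights, slide, array brightness, a replicate block and leaving out arrays.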

Additional observations from a re-analysis of the deposited data

Results flagged for a closer look

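Of 34 strain groups of 6 arrays checked over the 17 tested genes, 1 held an array far from the others, where chance gives about 1 in 20. The log2 ratio of Psmd11, a lid subunit, was -0.19 on NOD.B10 4, against 0.03 for the nearest and 0.14 for the highest of that strain. Its net Cy5 there was 6 scanner units. Without this array the strain difference of Psmd11 was 0.009 in place of 0.053 (limma adjusted p = 0.962).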

How the results depend on the processing

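The count of members called higher (4 as reported) was 10 of 17 with median centring, where 1979 of all 3920 genes were called higher. It was 2 of 7 with the net ratio, beside 136 of 837 genes. Within slide 2 and within slide 3 it was 0, where 41 and 1 of all genes were called higher. With the brightness covariate it was 0 too (limma called 3 of all genes higher and 0 lower, and 1 member was higher at an unadjusted p under 0.05). The count called lower (2) was 0 with median centring and with the covariate, where no gene at all was called lower. It was 0 with the scanner's ratio, Cy5 alone and slide fixed, where 313, 265 and 341 of all genes were lower. Within slide 2 and slide 3 it was 0, beside 46 and 1 of all genes. The net ratio and a filter of all 12 arrays gave 0, but left out both Psmc2 and Psmd7. A filter of at least 4 arrays of each strain gave 1, but left out Psmc2. The count was 1 without slide 1 or without slide 4. Replicate numbers did not pair the mice (r of same numbers -0.149 to 0.211), and with the replicate block 4 members were higher and 1 lower. The median difference (0.0579) was 0.814 with the net ratio, 0.471 with the filter of all 12 arrays and 0.396 with at least 4 of each strain. These medians cover fewer members: 7, of which 6 are core genes, for the first pair, and 10 for the last. Leaving out single arrays gave 4 to 5 higher, 2 to 3 lower and a median of 0.0365 to 0.107. Other scalings shifted the median of all genes, by 0.436 with median centring, 0.476 with the scanner's ratio, 0.0902 with Cy5 alone and -0.291 with the net ratio; gene values under them are relative to this shift, and their tests are of unshifted values. Among single genes 614 values kept direction and side of the threshold, 12 gained the call, 36 changed direction and the others lost the call. With the scanner's ratio these were Psma5 (-0.06), Psmb3 (-0.089), Psmb4 (-0.262), Psmb6 (0.991), Psmc2 (0.16), Psmc5 (0.264), Psmd11 (-0.261), Psmd12 (-0.37), Psmd14 (0.79) and Psmd3 (0.078). With median centring they were Psmb6 (0.027), Psmb9 (-0.085), Psmc4 (-0.314) and Psmd7 (0.018), and with Cy5 alone Psmb6 (0.075), Psmc5 (0.001) and Psmd14 (0.113). With the covariate they were Nfe2l1 (0.055), Psma2 (-0.229), Psma7 (-0.501), Psmb6 (0.094), Psmc5 (0.341), Psmd3 (0.292) and Psme1 (-0.018). Within slide 2 they were Psma7 (-0.093), Psmd12 (-0.285) and Psmd3 (0.013), within slide 3 Psmc4 (-0.1), Psmc5 (0.046) and Psmd11 (-0.055), and with slide fixed Psmc5 (0.009). Psmd14 was at 0.053 without slide 4, and from -0.15 to 0.035 on leaving out single arrays (above 0 at 0.002, 0.006, 0.035 and 0.02 without NOD 1, NOD 3, NOD 5 or NOD.B10 3). The cause of these changes was not tested. Signal near background on the NOD.B10 arrays limits the cap genes most.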
